A study of Mus musculus with 8 samples.

Results

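The 8 genes described here encode the hormones of the islet cells that do not make insulin, and transcription factors that mark those cells. Their probes were found by gene symbol: every probe that the deposited array table assigns to *Gcg*, *Sst*, *Ppy*, *Pyy*, *Ghrl*, *Irx1*, *Irx2* or *Hhex* was taken, which gave 12 of 56605 probes. Total RNA of islets from βUCP2Tg and WT mice was hybridised to one-colour Agilent mouse arrays, with 4 samples in each group, and the comparison asked which transcripts differ when uncoupling protein 2 is raised in β-cells. βUCP2Tg mice carry mouse *Ucp2* cDNA behind a rat *Ins2* promoter and a rabbit β-globin intron, and had been backcrossed to C57BL/6J; WT mice were their littermates without the transgene. All mice were male, and by the study's methods islets came from young adult mice. Islets of both groups were handpicked and kept for 8 h in RPMI 1640 with 200 mg/dL glucose, fetal bovine serum and antibiotics. The labels do not say whether a sample is 1 mouse or a pool of mice, so p-values measure the spread between these samples, which may be partly technical. The promoter is meant to act in β-cells, and none of the 8 genes encodes a β-cell hormone.

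Islets are small endocrine organs in which several cell types share a capillary bed and act on one another. Alpha cells release glucagon, which raises blood glucose, and delta cells release somatostatin, which restrains the release of both insulin and glucagon. PP cells release pancreatic polypeptide, a relative of peptide YY and neuropeptide Y, and the rare epsilon cells release ghrelin. The Iroquois homeobox factors Irx1 and Irx2 are used as alpha cell markers, while the homeobox factor Hhex is needed for delta cells.

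Of these genes, *Pyy* and *Hhex* stood higher in βUCP2Tg islets, with no overlap between the groups, although neither passed the test across all probes. *Pyy* was 1.74-fold and *Hhex* 1.36-fold higher. *Gcg* and *Sst*, the main hormones of alpha and delta cells, differed little between the groups, *Ppy* was 1.22-fold higher with overlapping groups, and *Ghrl* was 1.25-fold lower with overlapping groups. The difference for *Irx1* and *Irx2* was smaller than the spread within each group. Of the 11 member probes that could be tested, 0 were called (limma, Benjamini-Hochberg adjusted p below 0.05 over all 35363 probes tested, together with more than a 1.5-fold difference), where 0.399% of all probes tested were called. An unadjusted p under 0.05 was found for 2 member probes, against 24.7% of all probes tested. Groups that did not overlap, with βUCP2Tg higher, were found for the same 2 probes, against 5.53% of all probes tested. The median difference of the 11 probes was 0.07 on the log2 scale, 7 of them being positive, while over all probes the median was -0.01 and 49.1% were positive.

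The sequences that measured *Ppy* and *Pyy* are shown first, because these relatives lie next to each other on chromosome 11 with 0 genes between them in RefSeq's order. The probes are 60 bases long and are given 5′ to 3′ as the deposited table has them. Capitals mark the codons for glycine, lysine and arginine in a row. In this peptide family these residues form the site at which the precursor is cut and the hormone receives its C-terminal amide.

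Ppy probe A_52_P460791: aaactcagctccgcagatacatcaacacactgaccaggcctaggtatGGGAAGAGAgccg
Pyy probe A_52_P366462: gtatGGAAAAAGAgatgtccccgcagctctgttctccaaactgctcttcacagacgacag

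The marked bases lie at positions 48 to 56 of the *Ppy* probe and at positions 5 to 13 of the *Pyy* probe, and 7 of these 9 bases are the same in both. The longest run of bases common to both probes is 6 long. The *Npy* probe of the array shares runs of at most 7 bases with the *Pyy* probe and 8 with the *Ppy* probe. Both probes therefore cover the site at which the mature hormone ends, the *Ppy* probe with mostly the coding sequence before the site and the *Pyy* probe with mostly the sequence after it. Of the 4 *Ghrl* probes, A_55_P2022399 and A_55_P2506805 carry one and the same sequence and serve as a technical pair, and their values on an array differed by at most 0.15 on the log2 scale, with a median of 0.05. The *Ghrl* probe A_55_P2745105 was not well above background on any of the 8 arrays, and it was not tested. Its sequence lies within 2 of the 4 promoter windows that RefSeq's annotation gives for *Ghrl*.

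Promoter windows, from 250 bases before to 50 bases after an annotated start, were held for 7 of the 8 genes (RefSeq, GRCm38.p6), with none for *Irx1*. The 100 bases before the start are printed for the 4 main hormones and *Hhex*, on the gene's own strand. Capitals mark TATAA, the core of the TATA box, and TGACGTCA, the cyclic AMP response element, which is the same on both strands.

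Gcg, chr2:62483654-62483753, minus strand: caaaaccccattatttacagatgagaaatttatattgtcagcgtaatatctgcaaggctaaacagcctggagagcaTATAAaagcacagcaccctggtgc
Sst, chr16:23890845-23890944, minus strand: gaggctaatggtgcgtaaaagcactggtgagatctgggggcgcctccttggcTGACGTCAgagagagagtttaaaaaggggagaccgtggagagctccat
Ppy, chr11:102101320-102101419, minus strand: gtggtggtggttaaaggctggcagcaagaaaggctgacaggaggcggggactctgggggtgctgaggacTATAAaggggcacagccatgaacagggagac
Pyy, chr11:102107833-102107932, minus strand: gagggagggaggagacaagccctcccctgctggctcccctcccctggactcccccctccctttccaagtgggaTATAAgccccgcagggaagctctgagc
Hhex, chr19:37434741-37434840, plus strand: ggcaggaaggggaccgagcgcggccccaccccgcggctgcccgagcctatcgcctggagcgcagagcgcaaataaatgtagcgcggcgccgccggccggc

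On the gene's strand, TATAA began 24 bases before the start of *Gcg*, 31 before that of *Ppy* and 27 before that of *Pyy*. A second annotated *Pyy* start lies downstream and has the same TATAA 83 bases before it. The letters TATAA were in none of the 300-base windows of *Sst*, *Irx2* and *Hhex*, and they were in 1 of the 4 windows of *Ghrl*. Among all 32851 promoter windows, 7.48% held TATAA on the gene's strand within the 100 bases before the start, 17.5% anywhere on that strand and 24.9% on either strand. TGACGTCA was found in the *Sst* window only, beginning 48 bases before the start, and 1.79% of all windows held it. These are matches of letters, and nothing was measured at these sites here.

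The libraries themselves were checked before the values were compared. *Ucp2* had a normalized signal of 7.92 ± 0.31 (SD, n = 4) in βUCP2Tg and 1.67 ± 0.25 in WT islets on the log2 scale (adjusted p = 9.59e-06, limma), so every sample carried the *Ucp2* signal of its labelled genotype. β-cell genes were measured on every array, and 0 of the 10 tested were called. All 8 arrays lay on 1 slide, with WT in one row and βUCP2Tg in the other, so that the row and the genotype cannot be told apart. WT replicate 1 lay farthest from the other arrays of its group, with a median absolute deviation over probes of 0.27 against 0.19 to 0.22 for the other WT arrays, and βUCP2Tg replicate 4 had 0.21 against 0.11 to 0.15. Without WT replicate 1, 3807 probes were called in place of 141, without βUCP2Tg replicate 4, 1411, and without both 5573, whereas leaving out any 1 of the other 6 arrays gave 8 to 26. The summed signal of 23 acinar genes, the markers of the exocrine pancreas around islets, varied most between arrays. It was 28.6, 89.4, 40.2 and 557 in βUCP2Tg replicates 1 to 4 and 344, 666, 876 and 45.2 in WT replicates 1 to 4, on the linear scale of the normalized values. All 23 acinar genes had lower means in βUCP2Tg islets, but 0 were called.

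**Figure D1:**
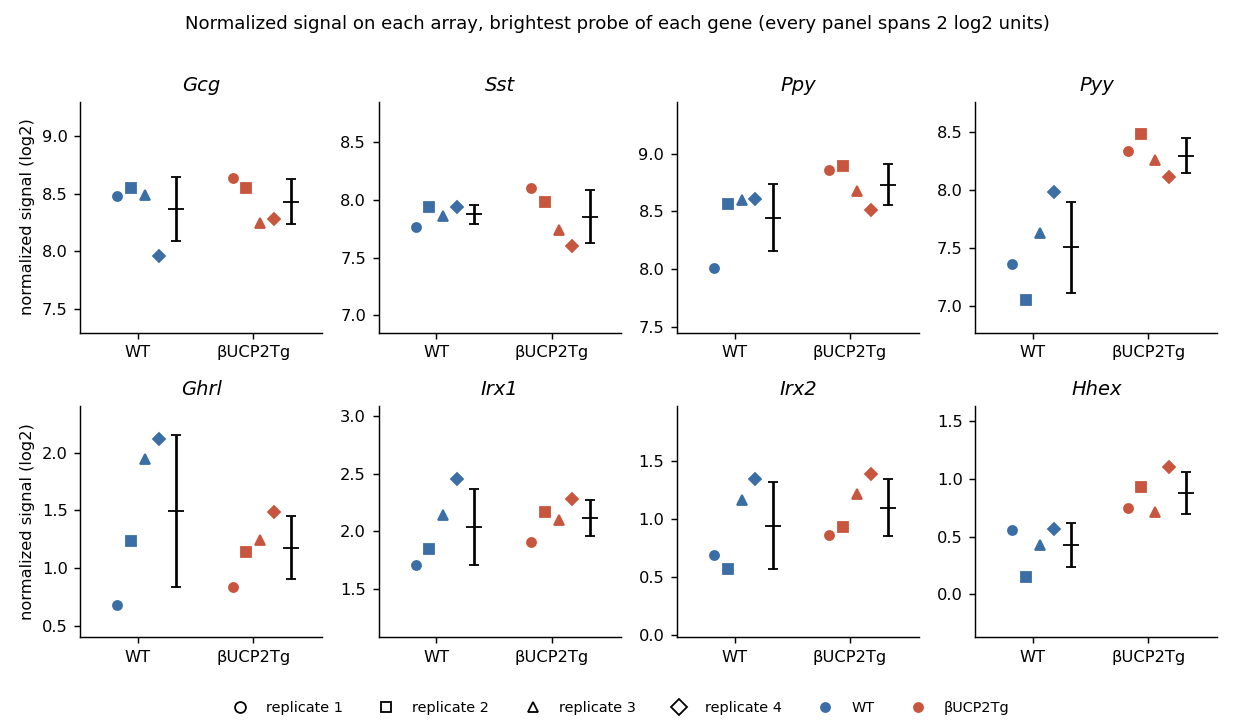
Normalized signal (log2, y axis) of the brightest probe of each of the 8 genes on the 4 WT and 4 βUCP2Tg arrays, with the mean and SD of each group in black and 1 marker shape per replicate number. All *Pyy* and *Hhex* values of βUCP2Tg islets lie above all WT values, while the groups overlap in the other 6 genes.

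Among the hormones, *Pyy* showed the clearest separation. Peptide YY is known as a gut hormone that reduces appetite, and in the mouse pancreas it is made by several islet cell types, PP and alpha cells among them. Its normalized signal was 8.34, 8.48, 8.26 and 8.11 in βUCP2Tg replicates 1 to 4 and 7.36, 7.05, 7.63 and 7.98 in WT replicates 1 to 4. The lowest βUCP2Tg array was above the highest WT array, by a narrow margin, and the WT arrays were spread more widely, with an SD of 0.40 against 0.15. The difference was 0.79 on the log2 scale (SE 0.19, 95% interval 0.35 to 1.24, unadjusted p = 0.00315, adjusted p = 0.0891, limma). A two-sided exact permutation test of 4 against 4 arrays gave p = 0.0286, which is the smallest it can give. The difference was 0.75 without WT replicate 1 and 0.86 without βUCP2Tg replicate 4 (adjusted p = 0.0534 and 0.0613, limma). With both arrays left out it was 0.81, and the adjusted p was 0.0481, so that *Pyy* was then called, among many more probes. It was also called after normexp background correction, with a difference of 0.88 (adjusted p = 0.0408). Over all alternatives the difference of *Pyy* lay between 0.64 and 0.95 and its adjusted p between 0.0408 and 0.257. In bulk islet RNA, more cells of a type and more transcript per cell cannot be told apart.

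*Ppy* encodes pancreatic polypeptide, the hormone that defines PP cells. Its normalized signal was 8.86, 8.89, 8.67 and 8.51 in βUCP2Tg replicates 1 to 4 and 8.01, 8.56, 8.60 and 8.60 in WT replicates 1 to 4. WT replicate 1 was low and the other WT arrays lay close together, inside the range of the βUCP2Tg arrays. The difference of 0.29 (SE 0.16, 95% interval -0.08 to 0.66) did not pass the test (adjusted p = 0.304, limma). Without WT replicate 1 it was 0.14, and after quantile normalization it was 0.45 (adjusted p = 0.116). The separation of *Pyy*, in contrast, did not rest on that array.

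*Gcg* encodes proglucagon, the precursor of glucagon. Its main probe gave 8.64, 8.55, 8.25 and 8.28 in βUCP2Tg replicates 1 to 4 and 8.48, 8.55, 8.49 and 7.96 in WT replicates 1 to 4. The groups overlapped, the highest value being in βUCP2Tg replicate 1 and the lowest in WT replicate 4. The difference of 0.06 (SE 0.16, 95% interval -0.31 to 0.43, adjusted p = 0.846, limma) was smaller than the spread within either group. Without WT replicate 4 it changed sign, to -0.08, and without βUCP2Tg replicate 1 it was -0.01. A second *Gcg* probe, A_55_P2936639, which the table assigns to another *Gcg* transcript, had a far lower signal of -0.86 to 0.73 and a difference of 0.30 (SE 0.29, adjusted p = 0.549). That difference was 0.077 without WT replicate 2 and 0.085 without βUCP2Tg replicate 4. On WT replicate 4 the main probe had its lowest value, whereas the second probe had its second highest WT value there.

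*Sst* encodes somatostatin. The signal was 8.10, 7.98, 7.74 and 7.60 in βUCP2Tg replicates 1 to 4 and 7.77, 7.94, 7.86 and 7.94 in WT replicates 1 to 4. The WT values lay inside the range of the βUCP2Tg values, whose SD was 0.23 against 0.08. The difference was -0.02 (SE 0.13, 95% interval -0.31 to 0.27, adjusted p = 0.939, limma), and its sign turned under several alternatives.

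*Ghrl* encodes ghrelin, the stomach hormone that stimulates appetite and growth hormone release and that marks epsilon cells in islets. The probe A_55_P2022399 gave 0.84, 1.14, 1.24 and 1.49 in βUCP2Tg replicates 1 to 4 and 0.69, 1.24, 1.94 and 2.12 in WT replicates 1 to 4. WT arrays held both the lowest and the highest values. The difference was -0.32 (SE 0.31, adjusted p = 0.552), that of the probe with the same sequence -0.31 (adjusted p = 0.541), and that of the third measured probe -0.21 (adjusted p = 0.717, limma). The mean of the 3 measured probes gave -0.28. Without WT replicate 1 the difference was -0.59 for the primary probe (unadjusted p = 0.0403, adjusted p = 0.126, limma) and -0.49 for the third measured one. Without WT replicate 4 these differences were -0.11 and -0.005, and without WT replicate 3 they were -0.17 and -0.024. Without both arrays that stood apart, that of the primary probe was -0.69 (adjusted p = 0.0840). Over all alternatives the adjusted p of the primary probe lay between 0.0840 and 0.842.

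**Figure D2:**
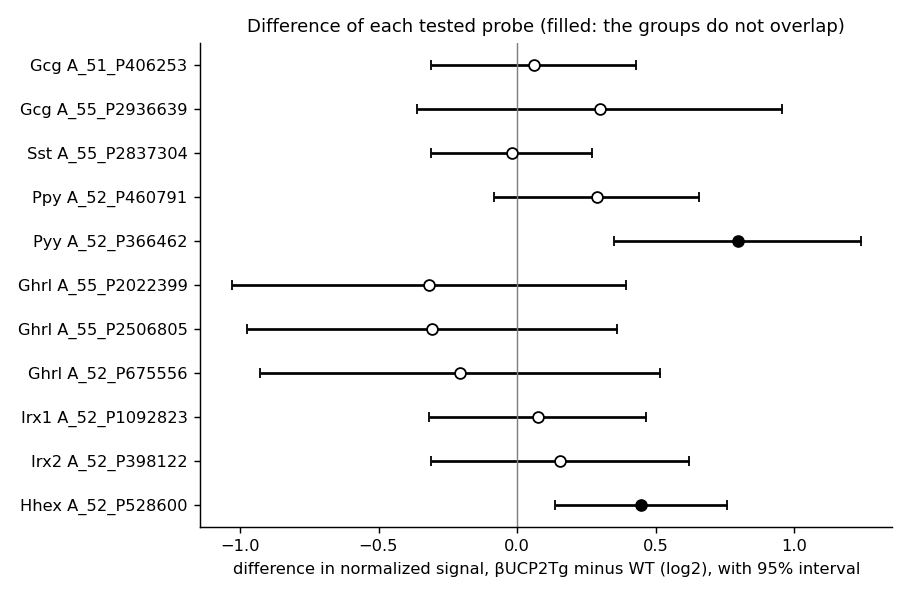
Difference in normalized signal between βUCP2Tg and WT islets (log2, x axis) for each of the 11 tested probes (y axis), as points with 95% intervals from limma. The intervals of *Pyy* (0.35 to 1.24) and *Hhex* (0.14 to 0.76) lie above 0, and those of the other 9 probes include it.

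Of the 3 transcription factors, *Hhex* was the one in which the groups did not overlap. Hhex is a homeobox factor that keeps delta cells in their differentiated state and is also known from the early development of liver and blood. Its signal was 0.75, 0.93, 0.71 and 1.10 in βUCP2Tg replicates 1 to 4 and 0.56, 0.15, 0.43 and 0.57 in WT replicates 1 to 4. Every βUCP2Tg array lay above every WT array, the nearest pair being 0.71 and 0.57. The difference was 0.45 (SE 0.14, 95% interval 0.14 to 0.76, unadjusted p = 0.010, adjusted p = 0.114, limma), with p = 0.0286 in the two-sided exact permutation test. It stayed between 0.36 and 0.50 under every alternative run, with an adjusted p of 0.0571 to 0.287. *Sst*, which marks the same cells, did not differ in this way (-0.02), although the difference between the 2 genes' responses was not tested.

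*Irx1* and *Irx2* are homeobox genes of the Iroquois family that belong to one gene cluster. *Irx1* gave 1.91, 2.17, 2.10 and 2.28 in βUCP2Tg replicates 1 to 4 and 1.71, 1.85, 2.14 and 2.46 in WT replicates 1 to 4. *Irx2* gave 0.86, 0.93, 1.21 and 1.39 in βUCP2Tg replicates and 0.69, 0.57, 1.17 and 1.35 in WT replicates. In both genes replicate 4 of either group was the highest of its group. The differences were 0.07 for *Irx1* (SE 0.17, adjusted p = 0.820) and 0.15 for *Irx2* (SE 0.20, adjusted p = 0.666, limma). Without WT replicate 1 the difference of *Irx1* was -0.04, and without both arrays that stood apart it was -0.09, with -0.03 for *Irx2*. Without βUCP2Tg replicate 4 the differences were 0.02 for *Irx1* and 0.06 for *Irx2*, and without WT replicate 1 that of *Irx2* was 0.07. Over all single arrays left out, the difference ranged from 0.029 (without WT replicate 2) to 0.29 (without WT replicate 4) for *Irx2*, and from -0.035 to 0.21 (without WT replicate 4) for *Irx1*.

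A ratio of a hormone's signal to that of insulin on the same array does not change when an array is scaled by a constant, so the members were also compared in that way. *Ins2* itself was not called (difference -0.16, adjusted p = 0.377, limma), but it ranged from 9.53 to 9.87 on βUCP2Tg arrays and only from 9.82 to 9.89 on WT arrays. In βUCP2Tg islets *Gcg*, *Sst* and *Ppy* followed it closely, whereas *Ghrl*, *Irx1*, *Irx2* and *Hhex* did not. There the SD of *Gcg* was 0.19 as a level and 0.04 as a log2 ratio to *Ins2*, and that of *Sst* went from 0.23 to 0.07 and that of *Ppy* from 0.18 to 0.07, whereas that of *Ghrl* went from 0.27 to 0.43, of *Irx1* from 0.16 to 0.30, of *Irx2* from 0.25 to 0.42 and of *Hhex* from 0.18 to 0.29. The SD of *Pyy* lay between these patterns, with 0.15 as a level and 0.11 as a ratio. In WT islets the SD of *Gcg* was 0.28 as a level and 0.27 as a ratio. The ratio of *Gcg* to *Ins2* was -1.24, -1.26, -1.32 and -1.25 in βUCP2Tg replicates 1 to 4 and -1.34, -1.34, -1.37 and -1.88 in WT replicates 1 to 4. The groups did not overlap, by a margin of 0.02, with a mean difference of 0.22 that rested in large part on WT replicate 4 (0.09 without it). The ratio of *Ppy* to *Ins2* was higher by 0.45 and ranged from -1.02 to -0.89 in βUCP2Tg and from -1.80 to -1.23 in WT islets. For *Pyy* the ratio was higher by 0.95, ranging from -1.53 to -1.30 against -2.84 to -1.86, and for *Hhex* by 0.61, ranging from -9.13 to -8.42 against -9.74 to -9.26. Two-sided exact permutation tests gave p = 0.0286 for each of these 4 ratios and p = 0.0571 for *Sst*, whose ratio was higher by 0.14 with overlapping groups. Because the mean of *Ins2* was lower by 0.16 in βUCP2Tg islets, every gene's ratio difference exceeds its level difference by that amount. As levels, *Gcg* differed by 0.06 and *Ppy* by 0.29, with overlapping groups. The share of all probes that separate in a ratio to *Ins2* was not determined. The ratios of *Ghrl*, *Irx1* and *Irx2* overlapped (exact permutation p = 0.686, 0.314 and 0.314). In all, 8 genes were set against *Ins2* and, as an alternative chosen after seeing the data, against *Ins1*. With *Ins1*, the groups stayed apart for *Ppy*, *Pyy* and *Hhex*, whereas *Gcg* overlapped (exact permutation p = 0.200). Leaving out 1 array at a time, the ratio to *Ins2* differed by 0.31 to 0.50 for *Ppy*, 0.79 to 1.12 for *Pyy* and 0.47 to 0.71 for *Hhex*.

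**Figure D3:**
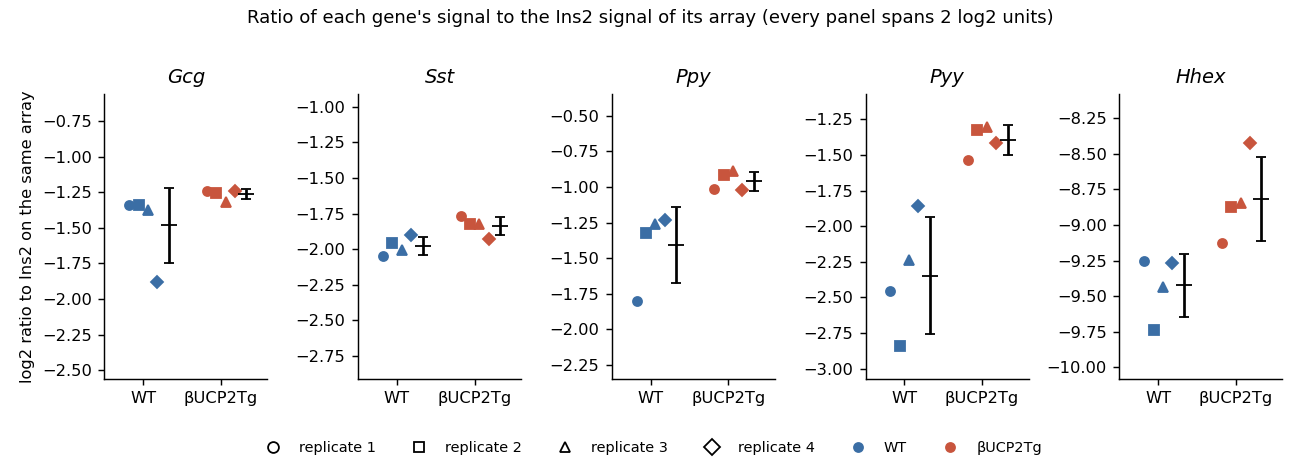
Log2 ratio of the signal of 5 genes to that of *Ins2* on the same array (y axis) for the 4 WT and 4 βUCP2Tg arrays, with the mean and SD of each group in black. The βUCP2Tg arrays lie above all WT arrays for *Gcg*, *Ppy*, *Pyy* and *Hhex*, for *Gcg* by 0.02, and the groups overlap for *Sst*.

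The signals of other cell types were set beside these values, with no test of a relation. On the WT arrays *Pyy* was lowest (7.05) where the acinar sum was 666 and highest (7.98) where it was 45.2, but it was 7.63 on the array with the largest sum, 876. *Hhex* on the WT arrays was likewise lowest (0.15) at 666 and highest (0.57) at 45.2, with 0.43 at 876 and 0.56 at 344. On βUCP2Tg replicate 4, with a sum of 557, *Pyy* was 8.11, the lowest of its group, and *Hhex* was 1.10, the highest of its group. The summed signal of 10 macrophage genes was 26.5 to 32.7 in βUCP2Tg and 34.9 to 43.2 in WT islets, with 1 of them, *Cd14* (a receptor for bacterial lipopolysaccharide), called lower by 2.08 (adjusted p = 0.0490, limma). In such a sum the brightest probe weighs most, here that of *Itgam*. It had 3.62 in βUCP2Tg and 3.95 in WT islets on the log2 scale, with overlapping groups (adjusted p = 0.204, limma). *Cd68* of the same list had a difference of -0.87 (adjusted p = 0.0934) and the complement gene *C1qa* one of 0.68 (adjusted p = 0.0851), neither being called. The part of these cells in the values of the members was not tested. For the 9 endothelial genes the sums were 35.0 to 41.7 in βUCP2Tg and 36.0 to 45.2 in WT islets, for the 6 duct genes 50.2 to 59.9 and 36.0 to 85.5, and for the 9 stellate and Schwann cell genes 9.88 to 11.9 and 8.83 to 16.1. The largest differences among the duct genes were those of *Krt19* (-1.61, adjusted p = 0.0735), without overlap, and *Sox9* (-0.86, adjusted p = 0.0944), with overlap. Both were lower, but 3 of the 6 duct genes had a positive difference.

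**Figure D4:**
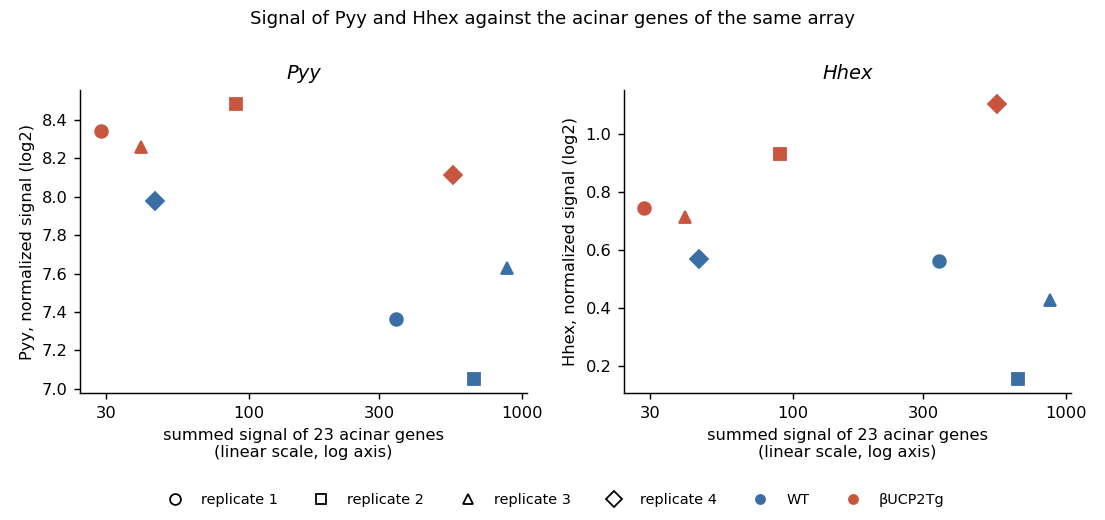
Normalized signal (log2, y axis) of *Pyy* and *Hhex* on each of the 8 arrays against the summed signal of 23 acinar genes on the same array (linear values on a log x axis). Within WT islets *Pyy* was lowest (7.05) at an acinar sum of 666 and highest (7.98) at 45.2. *Hhex* was also lowest (0.15) and highest (0.57) on these WT arrays.

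Some members varied together within the groups. *Ghrl*, *Irx1* and *Irx2* were low on replicate 1 of both groups and high on replicate 4 of both groups. On WT replicate 1 they lay 0.81, 0.33 and 0.25 below the WT means, and on WT replicate 4 they lay 0.62, 0.42 and 0.41 above them. Over the 8 deviations from the group means, Pearson's r was 0.94 for *Ghrl* with *Irx1* (Spearman's rho 0.95), 0.88 for *Ghrl* with *Irx2* (rho 0.90) and 0.88 for *Irx1* with *Irx2* (rho 0.90). Without the 2 arrays farthest from the median of the first gene, these were 0.91, 0.92 and 0.85. *Gcg*, which shares its cell type with *Irx1* and *Irx2*, went the other way, with r = -0.78 (rho -0.55) and r = -0.81 (rho -0.67). *Sst* and *Ppy* deviated together (r = 0.71, rho 0.71). These are 6 of 28 pairs and describe 8 arrays that share a slide and a scaling.

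**Figure D5:**
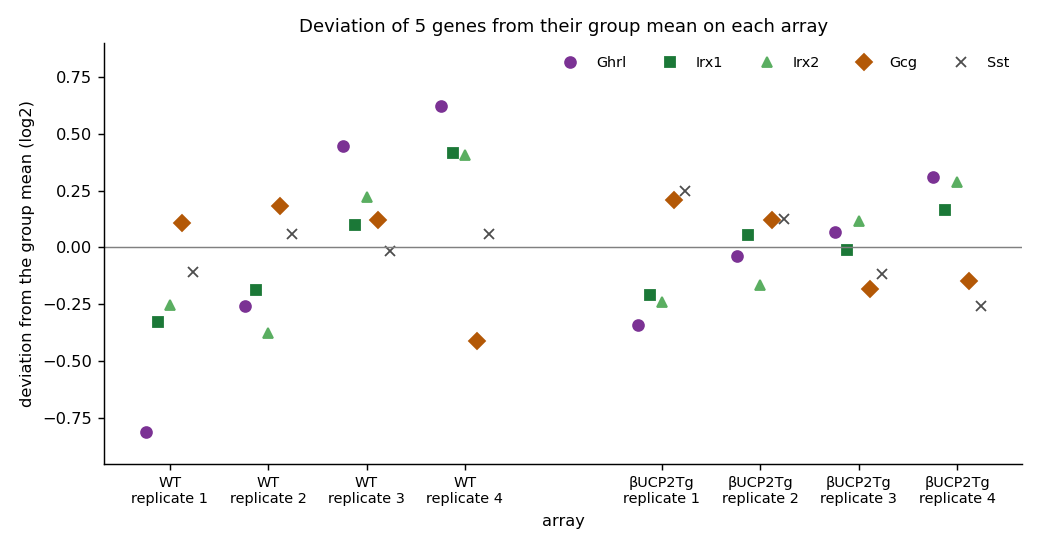
Deviation of *Ghrl*, *Irx1*, *Irx2*, *Gcg* and *Sst* from the mean of their own group (log2, y axis) on each of the 8 arrays (x axis), 1 marker shape per gene. *Ghrl*, *Irx1* and *Irx2* lie below 0 on both arrays numbered 1 and above 0 on both numbered 4, while *Gcg* lies on the other side of 0 on these 4 arrays.

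Among the 16470 genes compared, none of the 3 nearest patterns to any member belonged to a gene with a called difference. *Sst* was most like *Chga* (r = 0.99), which encodes the granule protein chromogranin A, then *Slc25a43* (0.97) and *Rps25* (0.97). *Pyy* was most like *Sh3bgrl* (0.98), *Phc1* (0.98) and *Rprd1b* (0.97), and *Ppy* like *Irak2* (0.97), *Ang4* (0.97) and *C130063K03Rik* (0.96). *Gcg* was nearest to *BC080695* (0.99), *Msx2* (0.97) and *Trim52* (0.96), and *Ghrl* to *Nacc1* (1.00), *Ranbp9* (0.99) and *Pcdhb7* (0.98). For *Irx1* these were *Ppp1r2*, *Golph3* and *Kctd5* (0.98 to 0.99), for *Irx2* they included *Zfp800* and *Prr14l* (0.98 each), and for *Hhex* *Notch3*, *Cdc7* and *Cdan1* (0.95 to 0.97). These values are correlations of deviations from the group means over 8 arrays on 1 slide, and they carry no test.

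The members were then set among the other genes of the same cell types, in lists that hold the members too: *Gcg*, *Irx1* and *Irx2* for alpha cells, *Sst* and *Hhex* for delta cells, and *Ppy*, *Pyy* and *Ghrl* for PP and epsilon cells. Of the 16 alpha cell genes tested, 0 were called, 14 had a positive difference and 4 did not overlap, all higher in βUCP2Tg islets. The median difference was 0.13. Groups that did not overlap, in either direction, were found for 12.1% of all probes tested. Among these 4 was *Gc*, the vitamin D binding protein, with 5.52 ± 0.23 in βUCP2Tg and 4.93 ± 0.18 in WT islets (SD, n = 4; adjusted p = 0.0923, limma). *Gcg* (0.06) and *Irx1* (0.07) had smaller differences, and none of these differences was called.

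Of the 10 delta cell genes tested, 0 were called, 9 had a positive difference and *Hhex* was the 1 that did not overlap. The largest difference was that of *Calb1*, which encodes the calcium-binding protein calbindin, with 1.40 ± 0.25 against 0.74 ± 0.29 (adjusted p = 0.0986) in overlapping groups. Of the 7 PP and epsilon cell genes tested, 0 were called and 4 had a positive difference. The groups did not overlap for 2, the member *Pyy* itself and the homeobox gene *Meis2* (difference 0.31, adjusted p = 0.147). Both were higher in βUCP2Tg islets, as were 5.53% of all probes tested without overlap. *Vipr2*, a receptor for vasoactive intestinal peptide, had the largest difference of that list, 1.34 (adjusted p = 0.0836), with overlapping groups. *Npy*, the neuronal relative of *Pyy* and *Ppy*, had a difference of -0.44 with wide spread (SE 0.50, adjusted p = 0.617).

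The receptors for these hormones were tested next. By their brightest probes 0 of 11 were called, and the receptors for neuropeptide Y and its relatives were mostly below background in islets, so that *Npy4r*, the receptor for pancreatic polypeptide, was the only one of them tested (difference -0.11, adjusted p = 0.803). *Gcgr*, the glucagon receptor, had 4.56 ± 0.29 in βUCP2Tg and 3.38 ± 0.68 in WT islets (adjusted p = 0.100) with overlapping groups. *Gipr*, the receptor for the gut hormone GIP, had 2.41 ± 0.33 against 3.17 ± 0.06, with βUCP2Tg lower on every array (adjusted p = 0.0741). A second *Gipr* probe, A_55_P2731801, was called lower by 1.06 (SE 0.16, adjusted p = 0.0463, limma), ranging from -0.84 to -0.23 in βUCP2Tg and from 0.17 to 0.59 in WT islets.

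Genes of peptide hormone processing, most but not all of them encoding enzymes, were measured as well. Of 8 tested, 0 were called, 2 had a positive difference and the median was -0.10. *Pcsk1*, the prohormone convertase that acts on proinsulin, had 4.72 ± 0.08 in βUCP2Tg and 5.03 ± 0.08 in WT islets without overlap (adjusted p = 0.111). *Pcsk2*, the convertase that releases glucagon from proglucagon, differed by -0.13 (adjusted p = 0.485). *Pam*, the enzyme that adds the C-terminal amide at the glycine marked in the *Ppy* and *Pyy* probes, differed by -0.30 (adjusted p = 0.317).

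Of 21 islet transcription factors tested, 0 were called, 15 had a positive difference, 2 did not overlap with βUCP2Tg higher (*Meis2* being 1 of them) and 3 with βUCP2Tg lower. Over all probes tested, 12.1% did not overlap, in either direction. *Rfx6* (1.03, adjusted p = 0.127) and *Neurog3* (0.83, adjusted p = 0.175), which act in the formation of endocrine cells, had the largest differences, with overlapping groups. In a list of the homeobox members *Irx1*, *Irx2* and *Hhex* with their relatives, 0 of the 6 tested were called, and 3 of these 6 are the members themselves. *Irx3* had a difference of -1.04 (SE 0.49, adjusted p = 0.225) and *Mkx* one of 0.52 (SE 0.22, adjusted p = 0.189). Of the 10 β-cell genes, 4 had a positive difference, the farthest being *Nkx6-1* (0.42, adjusted p = 0.301) and *Mafa* (-0.32, adjusted p = 0.110). The largest differences among acinar genes were those of *Amy2b* (-2.35, adjusted p = 0.361) and *Cela2a* (-2.13, adjusted p = 0.318). In the endothelial list they were *Emcn* (1.03, adjusted p = 0.119) and *Kdr* (0.77, adjusted p = 0.130). Of the 9 endothelial genes only 5 had a positive difference, and *Flt1* was lower by nearly as much as *Kdr* was higher (-0.73, adjusted p = 0.130). In the stellate and Schwann cell list they were *S100b* (-1.17, adjusted p = 0.0915) and *Col3a1* (0.60, adjusted p = 0.298).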

How the data were processed

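Each sample was hybridised with Cy3 to 1 array, and the authors read the scans with Agilent Feature Extraction (version 9.1 in the submitters' processing notes, 10.7.3.1 in the file headers). Deposited scanner files hold spot intensity on a linear scale, after background subtraction, with flags for spots well above background. The authors' GeneSpring table holds normalized log2 values. Set against the scanner files, each column was the log2 processed intensity minus 1 constant for the array, near its 75th percentile. The table also holds the authors' own fold changes, p-values and corrected p-values, which were not used.

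The deposited log2 values were tested. On each array, a probe was taken as measured if 50% or more of its spots had the flag. The test took probes with 4 or more such arrays out of 8, and 140 control probes were left out. Between 33191 and 36320 probes were measured per array and no spot was saturated; the number of arrays limits the precision. The linear model of limma 3.58.1 in R 4.3.3 (eBayes moderation) compared the genotypes, p-values were adjusted by Benjamini-Hochberg over all probes tested, and a call needed an adjusted p below 0.05 together with a difference of more than 1.5-fold. The brightest probe stands for a gene. The fit was tested on simulated data. Single values were checked with two-sided exact permutation tests. Signals of different probes were not ranked, since probes differ in brightness. Plots were made in Python 3.11.15 with matplotlib 3.10.9. Promoter windows came from RefSeq (GRCm38.p6).

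All probes of the 8 genes are given. Of each other gene list, called genes and the 2 tested genes with the largest difference are named, and for each member the 3 genes with the most similar deviations. *Meis2*, *C1qa*, *Npy*, *Npy4r*, *Pcsk2*, *Flt1* and *Itgam* were added after their values were seen. Some genes that this rule names are not reported here. The members and the lists were chosen with earlier results of these data known. The alternatives were scanner-derived values, other filters, scalings and background correction, the methods' t-test, an intensity trend, other fold limits, a replicate block and arrays left out.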

Additional observations from a re-analysis of the deposited data

Results flagged for a closer look

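In 22 sets of 4 arrays (11 probes in 2 groups), the array farthest out was compared with the rest of its set by the gap to its nearest neighbour divided by the range; chance alone marks about 1 in 20 such sets. A gap ratio of 0.875 was found for *Gcg* in WT islets, where WT replicate 4 had a signal of 7.96 and the other WT arrays 8.48 to 8.55. A gap ratio of 0.933 was found for *Ppy* in WT islets, where WT replicate 1 had 8.01 and the others 8.56 to 8.60. In the other 20 sets no array stood out in this way.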

How the results depend on the processing

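Against 141 probes called (74 higher, 67 lower), 20 were called with no filter on dim probes, 221 with probes measured on all 8 arrays, 40 with probes measured on at least 1, 543 after normexp background correction, 307 with an intensity trend and 91 with a 2-fold limit. The methods' t-test gave 22 after Benjamini-Hochberg adjustment and 2788 unadjusted. Leaving out 1 array gave 8 to 3807, the most without WT replicate 1, and leaving out both arrays that stood apart gave 5573. Of the members, 1 probe, that of *Pyy*, was called with normexp, by the unadjusted t-test and without both arrays; the count was 0 in each other alternative run. Replicate numbers did not pair the samples: deviations of same-numbered arrays correlated at 0.44, -0.05, -0.01 and -0.24. A replicate block left 15 calls, 0 of them members, with *Pyy* at an adjusted p of 0.164. The other counts stayed within 1.5 times of the main count.

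Signs turned for differences near 0. After quantile normalization *Sst* differed by 0.11. With 1 array left out, *Sst* ranged from -0.10 to 0.066 and was above 0 without βUCP2Tg replicate 3 or 4 or WT replicate 2 or 4. *Gcg* ranged from -0.078 to 0.12 and was below 0 without WT replicate 4 or βUCP2Tg replicate 1. *Irx1* ranged from -0.035 to 0.21 and was below 0 without WT replicate 1. The log2 ratio of *Ghrl* to *Ins2* ranged from -0.42 to 0.054 and was above 0 without WT replicate 4 or βUCP2Tg replicate 1. Without both arrays that stood apart, *Sst* differed by 0.030, *Irx1* by -0.090 and *Irx2* by -0.026. The causes were not tested. In signal, *Pyy*, *Ppy*, *Hhex* and *Ghrl* kept their signs in every alternative run.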
